A study of Homo sapiens with 6 samples.

Results

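Small nucleolar RNAs (snoRNAs) were followed in OCI-AML3, a long-established line of human acute myeloid leukaemia cells with a mutant NPM1 allele, after siRNA against that mutant. The genes examined are those whose NCBI symbol starts with SNORA (H/ACA class) or SNORD (C/D class) and whose raw counts sum to 50 or more over the 6 libraries. This gave 61 genes, 31 SNORA and 30 SNORD, of 539 snoRNA genes and 28307 genes in the table. The siNPM1c group (3 libraries) was transfected with siRNA against NPM1c, the cytoplasmic mutant of nucleophosmin. The siControl group (3 libraries) was transfected with a control siRNA. In both groups the siRNA was at 10 nM, cells were collected on day 3, total RNA was sequenced, and the labels give the genotype as WT, 1 cell line and 1 batch. The genes were thus chosen by their summed counts over both groups, so their overall level is a description and no finding.

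snoRNAs are short nucleolar RNAs that base-pair with ribosomal RNA (rRNA). C/D snoRNAs carry a C box and a D box and direct ribose methylation with the enzyme fibrillarin, whereas H/ACA snoRNAs end in an ACA motif and direct pseudouridylation with dyskerin. A few, among them U3 (the SNORD3 genes) and U17 (the SNORA73 genes), instead take part in cutting the rRNA precursor on the way to the small ribosomal subunit. Most human snoRNAs are cut out of introns of host genes, while U3 has its own promoters. Nucleophosmin itself is an abundant nucleolar protein with roles in ribosome production.

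The 5 H/ACA and 6 C/D snoRNAs printed here are examples of the members described: both U17 genes, the most abundant U3 gene, and some of the members called higher or lower in each class. Sequences were read from GENCODE 29 on GRCh38, 5′ to 3′ on the RNA strand, with U written as t. Capitals mark, in SNORA, the last ACA that starts within the final 10 bases. In SNORD they mark the first TGATGA (C box) and the last CTGA (D box) that starts within the final 30 bases. SNORA73A (chr1:28507366-28507571, plus strand) and SNORA73B (chr1:28508559-28508762, plus strand) lie in SNHG3. SNORA63 (chr3:186787300-186787431, plus strand) lies in EIF4A2, SNORA3A (chr11:8684227-8684356, plus strand) in RPL27A and SNORA23 (chr11:9428773-9428954, plus strand) in IPO7.
SNORA73A: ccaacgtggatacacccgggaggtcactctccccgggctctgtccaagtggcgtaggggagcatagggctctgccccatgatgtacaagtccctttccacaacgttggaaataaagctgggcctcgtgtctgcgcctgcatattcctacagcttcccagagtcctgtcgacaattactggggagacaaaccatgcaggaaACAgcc
SNORA73B: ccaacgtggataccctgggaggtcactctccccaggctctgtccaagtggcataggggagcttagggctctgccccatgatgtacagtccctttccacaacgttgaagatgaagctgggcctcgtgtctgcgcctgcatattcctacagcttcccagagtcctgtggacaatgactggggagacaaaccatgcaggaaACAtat
SNORA63: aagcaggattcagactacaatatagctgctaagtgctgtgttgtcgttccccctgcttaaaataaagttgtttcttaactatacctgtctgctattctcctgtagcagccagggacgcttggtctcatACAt
SNORA3A: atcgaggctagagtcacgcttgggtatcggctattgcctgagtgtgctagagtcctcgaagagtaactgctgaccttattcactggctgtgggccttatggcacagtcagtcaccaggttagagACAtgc
SNORA23: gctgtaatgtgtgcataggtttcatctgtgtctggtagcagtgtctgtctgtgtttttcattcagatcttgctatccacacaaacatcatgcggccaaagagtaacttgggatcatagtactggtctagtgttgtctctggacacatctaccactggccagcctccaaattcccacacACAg
SNORD3A (chr17:19188016-19188232, plus strand) has no host gene. SNORD17 (chr20:17962710-17962946, minus strand) lies in SNX5, SNORD22 (chr11:62852910-62853035, minus strand) in SNHG1 and SNORD125 (chr22:29333163-29333258, minus strand) in AP1B1. SNORD4A (chr17:28722582-28722653, plus strand) lies in RPL23A and SNORD96A (chr5:181241814-181241892, minus strand) in RACK1.
SNORD3A: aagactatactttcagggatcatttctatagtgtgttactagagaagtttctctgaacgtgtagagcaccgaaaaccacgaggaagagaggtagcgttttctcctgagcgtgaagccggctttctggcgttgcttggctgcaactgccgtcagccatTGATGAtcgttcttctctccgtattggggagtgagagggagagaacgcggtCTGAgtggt
SNORD17: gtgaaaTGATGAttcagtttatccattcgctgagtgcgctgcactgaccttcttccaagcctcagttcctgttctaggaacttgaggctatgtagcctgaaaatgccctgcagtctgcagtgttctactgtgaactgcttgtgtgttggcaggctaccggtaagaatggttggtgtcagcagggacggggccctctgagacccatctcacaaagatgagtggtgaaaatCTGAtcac
SNORD22: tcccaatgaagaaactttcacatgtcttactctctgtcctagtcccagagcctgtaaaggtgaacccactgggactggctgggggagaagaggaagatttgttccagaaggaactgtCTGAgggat
SNORD125: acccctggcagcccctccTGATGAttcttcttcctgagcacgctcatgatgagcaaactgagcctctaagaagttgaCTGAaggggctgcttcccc
SNORD4A: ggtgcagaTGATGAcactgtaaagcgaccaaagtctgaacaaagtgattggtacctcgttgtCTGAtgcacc
SNORD96A: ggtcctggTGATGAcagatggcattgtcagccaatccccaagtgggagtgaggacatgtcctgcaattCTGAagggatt

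The letters follow the class names. The ACA match was present in 30 of 30 SNORA members with a GENCODE sequence, in 90.8% of all 142 SNORA genes with one, and in 13 of 274 SNORD genes. The D box match was present in 22 of 22 SNORD members, in 96.4% of all 274 SNORD genes and in 18 of 142 SNORA genes. The C box match was present in 18 of 22 SNORD members, in 77.0% of all SNORD genes and in 5 of 142 SNORA genes. No exact TGATGA stands in SNORD22, whose only capitals are its D box. Motifs were searched on the RNA strand alone, and in the printed sequences none overlaps another.

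The median annotated length was 137 bases for SNORA members and 90.5 bases for SNORD members. Among snoRNA genes with a summed count under 50 but above 0, the median was 134 bases for 105 SNORA genes and 76 bases for 144 SNORD genes. A further 46 SNORA and 183 SNORD genes were listed at 0. The genes nearest the cut-off were SNORA55 (53 counts in all) and SNORA24 (58) inside it, SNORA74D and SNORA6 (44 each) outside it, SNORD12C (52) and SNORD139 (58) inside it, and SNORD104 (49) and SNORD129 (47) outside it. Of the 61 members, 35 overlap an exon of another gene in GENCODE 29, so that reads of a processed host or neighbour can be counted with them. How the counting treated such reads, and whether it used strand, is not given in the sources used here.

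Libraries held 15075235 to 25190122 counts. Ribosomal RNA genes took 69.4% to 71.1% of the counts in the siNPM1c libraries and 63.0% to 64.5% in the siControl libraries. NPM1, the target, had 293, 500 and 350 counts in the siNPM1c libraries and 922, 1366 and 922 in the siControl libraries. Its log2 fold change was -1.10 ± 0.05 (SE), and the adjusted p was 5.82e-51 (Benjamini-Hochberg over all genes, edgeR quasi-likelihood), and mutant and wild-type transcripts were counted together. Over the 12938 genes that could be tested, siNPM1c was higher in 2756 (21.3%) and lower in 2766 (21.4%) at an adjusted p under 0.05, together 42.7%, and in 49.2% the groups did not overlap. The myeloid genes CD33, SPI1, CEBPA, LYZ and CSF3R were present in both groups, and the granule gene MPO was low, at 1.75 CPM (counts scaled to a common library size) in siNPM1c and 0.732 CPM in siControl. Among markers of other cells, CD3E, EPCAM, KRT18 and COL1A1 averaged under 1 CPM in each group, and PECAM1 and PAX5 were detected. In bulk RNA, fewer cells of a type and less RNA per cell cannot be told apart, and since the labels do not say that libraries came from separate cultures, the p-values take in the spread among these 6 libraries alone, possibly a technical one.

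In the siNPM1c libraries the summed C/D counts stood higher relative to the summed H/ACA counts than in the siControl libraries. The SNORA members summed to 3190, 4969 and 3511 raw counts in siNPM1c and to 4532, 6356 and 4582 in siControl. The SNORD members summed to 8886, 12850 and 9450 raw counts in siNPM1c and to 9485, 13335 and 9269 in siControl. The ratio of the SNORA to the SNORD sum within a library was thus 0.359, 0.387 and 0.372 in siNPM1c and 0.478, 0.477 and 0.494 in siControl. Every siNPM1c library lay below every siControl library, and the group means differed by -0.37 on the log2 scale, with SDs of 0.0139 and 0.0099 (n = 3 each). Since both sums come from 1 library, this ratio does not depend on how libraries are scaled.

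A pair of abundant snoRNAs makes up most of either sum: U17 (SNORA73A and SNORA73B) held 75.4% of the SNORA counts, and U3 (SNORD3A, SNORD3C and SNORD3D) held 87.5% of the SNORD counts. The U17 to U3 ratio of raw counts was 0.306, 0.331 and 0.321 in siNPM1c and 0.408, 0.415 and 0.431 in siControl. With U17 and U3 left out, the ratio of the remaining SNORA to the remaining SNORD counts was 0.769, 0.772 and 0.736 in siNPM1c and 0.969, 0.890 and 0.911 in siControl. The groups stood apart in both ratios, in the same direction, and the difference without U17 and U3 was smaller, at -0.28 on the log2 scale. The remaining SNORD counts, 1016, 1634 and 1144 in siNPM1c and 1178, 1732 and 1219 in siControl, rest largely on 1 gene. SNORD17 held 511, 814 and 561 of them in siNPM1c and 483, 641 and 460 in siControl. The ratio without SNORD17 was not tested, so the difference of -0.28 is not shown to reach beyond SNORD17. It is not read as a shift across the other members. As the members were chosen with earlier results known, no p is given for these sums.

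**Figure D1:**
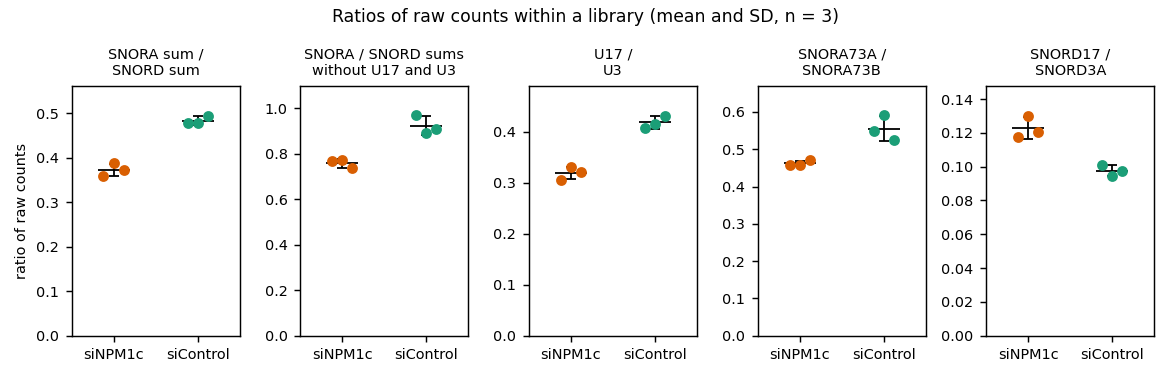
Ratios of raw counts within each library (vertical axes, no unit, starting at 0), with 1 point per library and the mean and SD of 3 libraries per group. The siNPM1c points lie below the siControl points for the SNORA to SNORD ratio with and without U17 and U3, for U17 to U3 and for SNORA73A to SNORA73B, and above them for SNORD17 to SNORD3A.

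Which side of these ratios moved depends on the scaling. With TMM factors, which take the bulk of genes as level, U3 summed to 592, 537 and 561 CPM in siNPM1c and to 462, 420 and 433 CPM in siControl. On the same scale U17 summed to 181, 178 and 180 CPM in siNPM1c and to 188, 174 and 187 CPM in siControl. The groups were apart for U3 and overlapped for U17. As a share of all counts, rRNA included, U17 was 0.0157%, 0.0147% and 0.0154% in siNPM1c and 0.0225%, 0.0202% and 0.0219% in siControl, whereas U3 was 0.0513%, 0.0445% and 0.0479% in siNPM1c and 0.0551%, 0.0487% and 0.0508% in siControl. On that scale the groups were apart for U17 and overlapped for U3. The siNPM1c libraries also had the larger rRNA share, as given above, and its part in this was not tested. Library sizes alone shifted the median gene by -0.47 log2. All further changes are on the TMM scale, relative to the bulk of genes, unless stated.

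The members were also tested gene by gene, and the difference between the classes in counts of calls was not itself tested. Among the 26 SNORA members that passed the filter on low counts, 6 fell (23.1%, against 21.4% lower among all genes tested) and 0 rose (21.3% higher among all genes tested). At an unadjusted p under 0.05 there were 4 higher SNORA members, and DESeq2 also called 0 higher and 5 lower of all 31. Its shares were 9.30% higher and 8.54% lower of 23093 genes. These were taken without the filter on low counts, so they are not comparable with the edgeR shares. Without siNPM1c replicate 1, siNPM1c replicate 2 or siControl replicate 3 there was 1 higher SNORA call, and without siControl replicate 1 there were 4. Among the 25 SNORD members that passed, 8 rose (32%) and 4 fell (16%), and 2 fell without siNPM1c replicate 1. The 8 include the near-identical U3 genes SNORD3A, SNORD3C and SNORD3D, which do not count as independent members. By DESeq2 5 SNORD members rose and 2 fell. The share of SNORA members that fell was close to that over all genes. The groups did not overlap in 8 SNORA members, 0 above and 8 below, and in 11 SNORD members, 8 above and 3 below, where 24.3% of all genes tested were apart above and 24.9% below. The median log2 fold change was -0.12 over the tested SNORA members, 0.21 over the tested SNORD members and -0.01 over all genes tested. These medians moved with the choice of genes and libraries. With a filter at 1 CPM they were -0.055 for SNORA and -0.000985 for SNORD members, a difference between classes of -0.05 in place of -0.33. Without siControl replicate 3 the SNORA median turned to 0.02, and over SNORA members with 200 counts or more it was 0.18.

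The filter bears on these counts. The genes left untested were SNORA52, SNORA55, SNORA62, SNORA68 and SNORA94, and SNORD12C, SNORD35A, SNORD35B, SNORD94 and SNORD139. Another 7 SNORA and 11 SNORD members were over the filter in all libraries of 1 group but not in all of the other. The filter asks for 0.602 CPM on raw library totals, before TMM factors, in any 3 libraries. SNORA3A, SNORA24, SNORA63 and SNORD4A were over it in 0 siNPM1c and 3 siControl libraries, and SNORD125 in 3 siNPM1c and 0 siControl libraries. These had a difference built into their selection. SNORD74 and SNORD96A were over it in 1 siNPM1c and 3 siControl libraries. For SNORD83B these numbers were 3 and 1, and for SNORD15A and SNORD22 3 and 2. There the selection can still have favoured a difference. Fitted without the filter, the medians were -0.11 over all 31 SNORA and 0.18 over all 30 SNORD members. With library sizes alone they were -0.59 and -0.26, beside -0.48 over all genes, and 0 SNORA members were called higher and 16 lower, 3 SNORD members higher and 10 lower, where 3.90% of all genes were higher and 71.5% lower.

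**Figure D2:**
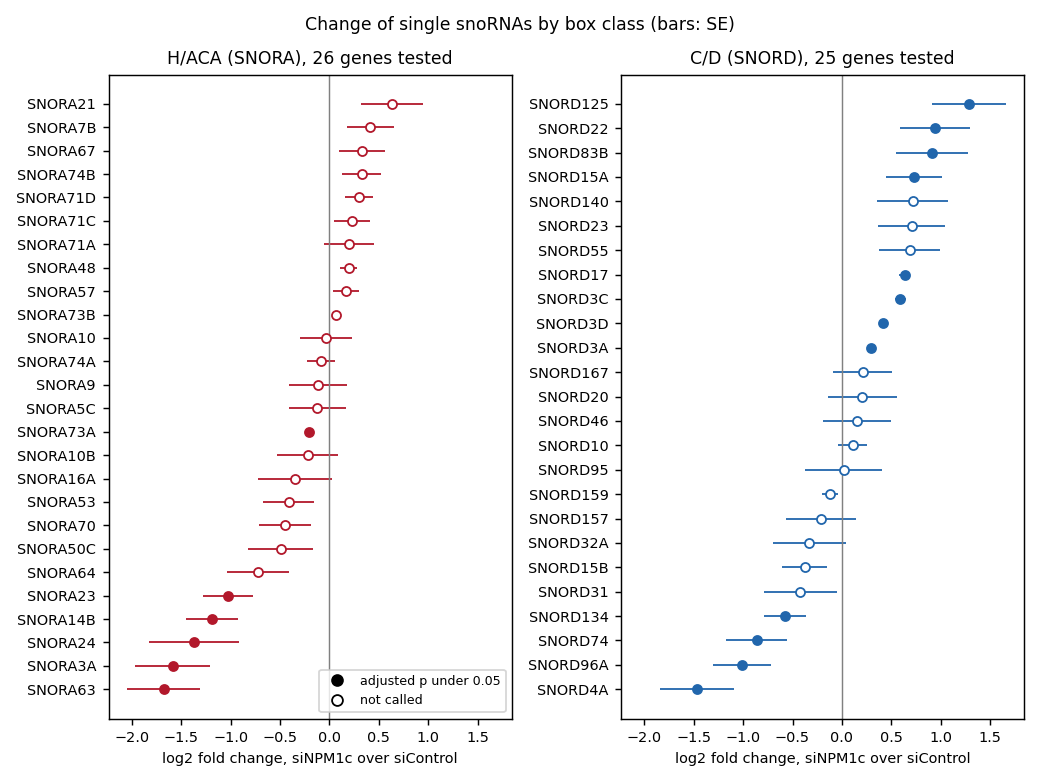
Log2 fold change, siNPM1c over siControl (horizontal axis), of the 26 SNORA (left) and 25 SNORD (right) members tested, with SE as bars and filled points for an adjusted p under 0.05. Filled SNORA points all lie left of 0, from SNORA63 at -1.68 to SNORA73A at -0.20, while filled SNORD points lie on both sides, from SNORD4A at -1.47 to SNORD125 at 1.29.

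U3 is the C/D snoRNA of the first cuts in the rRNA precursor, and all 3 of its genes with enough counts rose relative to the bulk of genes. SNORD3A stood at 326, 299 and 314 CPM in siNPM1c and at 266, 246 and 254 CPM in siControl. SNORD3D (chr17:19112420-19112636, minus strand) stood at 211, 193 and 202 CPM in siNPM1c and at 161, 145 and 149 CPM in siControl. SNORD3C (chr17:19190029-19190245, minus strand) stood at 54.5, 44.5 and 45.5 CPM in siNPM1c and at 34.9, 30 and 30.5 CPM in siControl. In each of the 3 genes the lowest siNPM1c library was above the highest siControl library. The log2 fold changes were 0.29 ± 0.02 for SNORD3A (adjusted p 2.59e-19), 0.42 ± 0.03 for SNORD3D (1.3e-23) and 0.59 ± 0.06 for SNORD3C (1.82e-16), by edgeR's quasi-likelihood test. With library sizes alone the sign turned for SNORD3A (-0.17) and SNORD3D (-0.05), and SNORD3C kept a log2 fold change of 0.13 with an adjusted p of 0.0359.

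The 3 U3 genes did not move by the same amount. Counted from 1 at the 5′ end of SNORD3A, SNORD3C differs from it by G108A (99.5% identity), and SNORD3D by A4G, C53T and A78C (98.6% identity). Reads that miss these positions fit more than 1 gene, so the split of counts between them is uncertain. The ratio of SNORD3C to SNORD3A counts was 0.167, 0.149 and 0.145 in siNPM1c and 0.131, 0.122 and 0.120 in siControl. The ratio of SNORD3D to SNORD3A counts was 0.647, 0.646 and 0.643 in siNPM1c and 0.606, 0.590 and 0.585 in siControl. Both ratios were higher in every siNPM1c library than in any siControl library. SNORD3B-1 and SNORD3B-2, further U3 genes, were listed at 0 in all libraries.

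U17 is the H/ACA snoRNA of small-subunit rRNA processing, and its 2 genes, both in SNHG3, differed from each other. SNORA73A fell, to 57.0, 55.8 and 57.7 CPM in siNPM1c against 66.7, 64.8 and 64.5 CPM in siControl. Its log2 fold change was -0.20 ± 0.04 (SE), with an edgeR quasi-likelihood adjusted p of 8.52e-06, and the groups did not overlap. SNORA73B stood at 124, 122 and 123 CPM in siNPM1c and at 122, 110 and 122 CPM in siControl. Its siControl library of replicate 2 was the low one, its groups overlapped, and its log2 fold change of 0.07 ± 0.03 had an adjusted p of 0.0752. Without siControl replicate 1 or 3 that p was 0.0168 or 0.0139, and with library sizes alone the value turned to -0.41. The ratio of SNORA73A to SNORA73B counts was 0.459, 0.458 and 0.471 in siNPM1c and 0.548, 0.592 and 0.526 in siControl, and the groups were apart. The 2 sequences are 93.2% identical. SNORA73A overlaps an exon of another gene and SNORA73B does not, and the host SNHG3 averaged 21 ± 0.415 CPM in siNPM1c and 22 ± 0.47 CPM in siControl (SD, n = 3 each).

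Other snoRNAs of rRNA processing were few in these libraries. SNORD22 (U22, needed for small-subunit rRNA in Xenopus) had 16, 21 and 12 counts in siNPM1c and 14, 9 and 10 in siControl. Scaled, that is 1.20, 1.01 and 0.810 CPM in siNPM1c and 0.778, 0.326 and 0.538 CPM in siControl, with the groups narrowly apart. Its log2 fold change of 0.94 ± 0.35 had an edgeR quasi-likelihood adjusted p of 0.0228. That call was lost without siNPM1c replicate 1 (0.1), siNPM1c replicate 2 (0.0711) or siControl replicate 2 (0.232), and by DESeq2 (0.123). SNORD118 (U8, needed for the large subunit) was listed at 0 in all libraries. SNORD13, which guides acetylation of small-subunit rRNA, had 6, 7 and 6 counts in siNPM1c and 8, 8 and 8 in siControl. The 5 genes of U14 (SNORD14A to SNORD14E), another snoRNA of small-subunit rRNA, summed to 2, 26, 15, 8 and 12 counts over all libraries. For U13 and U14 these counts are too few for a comparison. For U8, which overlaps an exon of another gene, the listed 0 is not read as a level.

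**Figure D3:**
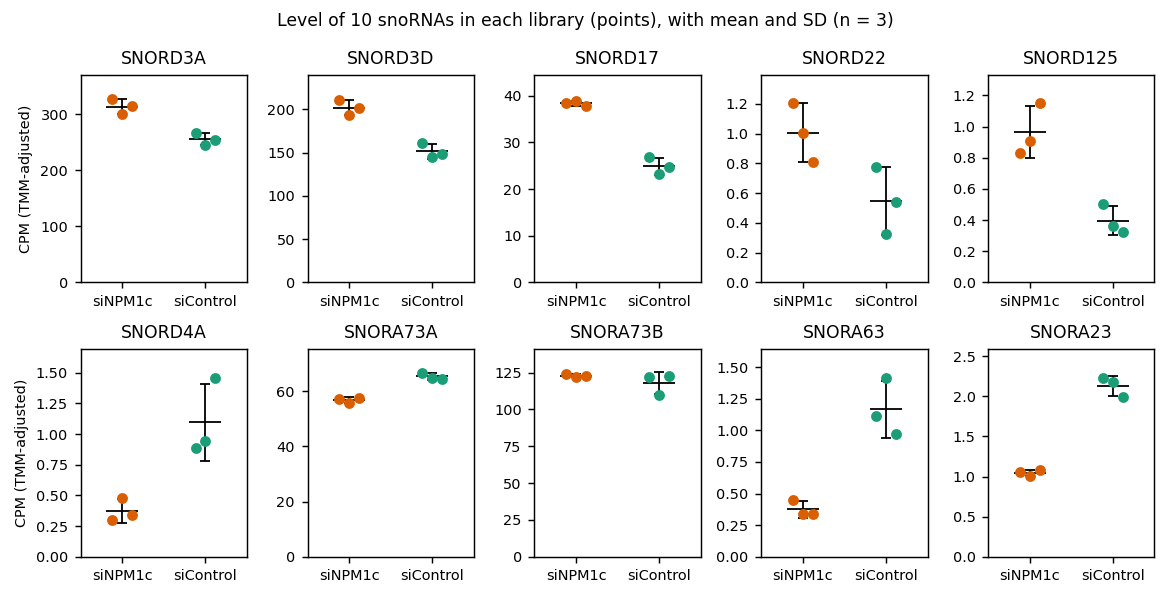
Level in CPM (TMM-adjusted, vertical axes from 0) of 10 snoRNAs in each library, with the mean and SD of 3 libraries per group. All 3 siNPM1c points lie above the siControl points for SNORD3A, SNORD3D, SNORD17, SNORD22 and SNORD125 and below them for SNORD4A, SNORA73A, SNORA63 and SNORA23, while SNORA73B overlaps.

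Of the other C/D snoRNAs, SNORD17, a guide for methylation of large-subunit rRNA, gave the firmest change. It stood at 38.4, 39.0 and 37.9 CPM in siNPM1c and at 26.9, 23.2 and 24.8 CPM in siControl. The log2 fold change was 0.64 ± 0.06 (adjusted p 4.6e-22, edgeR's quasi-likelihood test), and with library sizes alone it was 0.17 (adjusted p 0.0111). Relative to SNORD3A, SNORD17 counts were 0.118, 0.130 and 0.121 in siNPM1c and 0.101, 0.0946 and 0.0975 in siControl, so its rise exceeded that of the most abundant U3 gene in every library. SNORD125 had 11, 19 and 17 counts in siNPM1c and 9, 10 and 6 in siControl. Its siNPM1c libraries, at 0.827 to 1.15 CPM, were all above the siControl libraries, at 0.323 to 0.5 CPM, and the log2 fold change of 1.29 ± 0.38 had an adjusted p of 0.00287, though it entered the test only through siNPM1c. With library sizes alone SNORD125 was still called higher (0.82, adjusted p 0.0435).

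The remaining higher calls were SNORD15A and SNORD83B, both from few counts. SNORD15A (chr11:75400391-75400538, plus strand), a guide for methylation of large-subunit rRNA, had 23, 36 and 16 counts in siNPM1c and 9, 29 and 21 in siControl. Its groups overlapped, and its log2 fold change was 0.73 ± 0.28 (adjusted p 0.0273, edgeR). Without siNPM1c replicate 1, siNPM1c replicate 2 or siControl replicate 1 that p was 0.0890, 0.166 or 0.183. SNORD83B (chr22:39313819-39313911, minus strand) had 12, 18 and 15 counts in siNPM1c and 13, 10 and 8 in siControl. In CPM its groups were apart, and the log2 fold change of 0.91 ± 0.36 had an adjusted p of 0.0330. Leaving out siNPM1c replicate 1, 2 or 3, or siControl replicate 2 or 3, gave adjusted p-values of 0.0650, 0.0635, 0.0991, 0.203 and 0.0934. SNORD15A and SNORD83B overlap exons of other genes, and their hosts RPS3 and RPL3 averaged 540 and 332 CPM in siNPM1c and 611 and 304 CPM in siControl.

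C/D snoRNAs also fell. SNORD4A, a guide for methylation of small-subunit rRNA, had 4, 10 and 5 counts in siNPM1c and 16, 26 and 27 in siControl, and the groups were apart. Its log2 fold change of -1.47 ± 0.38 had an adjusted p of 0.000592 by edgeR, but it entered the test only through siControl. SNORD96A, a guide for methylation of rRNA of the large subunit, had 14, 15 and 10 counts in siNPM1c and 42, 29 and 31 in siControl. In CPM its groups touched, at 1.05 in siNPM1c replicate 1 and 1.05 in siControl replicate 2, and the log2 fold change was -1.01 ± 0.30 (adjusted p 0.00273, and 0.0739 without siControl replicate 1).

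SNORD74 and SNORD134 are the other lower C/D calls. SNORD74 (chr1:173867674-173867745), a C/D snoRNA of the GAS5 host, had 8, 18 and 10 counts in siNPM1c and 23, 40 and 23 in siControl. SNORD134 (chr17:82089960-82090140) had 18, 41 and 25 counts in siNPM1c and 41, 69 and 54 in siControl. In CPM the groups were apart for both, with log2 fold changes of -0.86 ± 0.31 (adjusted p 0.0161) and -0.58 ± 0.21 (adjusted p 0.0193) by edgeR's quasi-likelihood test. The SNORD74 call was lost without siNPM1c replicate 1 (0.0665), siNPM1c replicate 3 (0.0531) or siControl replicate 2 (0.0773). The SNORD134 call was lost without siNPM1c replicate 1 (0.106) or siControl replicate 3 (0.0877). SNORD159, among the 5 C/D members of highest level per length, stood at 12.7, 13.3 and 14.5 CPM in siNPM1c and at 14, 16.1 and 13.5 CPM in siControl (log2 fold change -0.12 ± 0.08, adjusted p 0.254).

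The called H/ACA snoRNAs other than SNORA73A were SNORA63, SNORA3A, SNORA14B, SNORA23 and SNORA24. SNORA63, SNORA3A and SNORA24 entered the test only through siControl, where they are high, so their direction says nothing about the class. SNORA63, also named E3, had 6, 7 and 5 counts in siNPM1c and 20, 39 and 18 in siControl, a log2 fold change of -1.68 ± 0.37 (adjusted p 5.88e-05, edgeR). SNORA3A had 9, 5 and 4 counts in siNPM1c and 16, 31 and 25 in siControl (-1.59 ± 0.38, adjusted p 0.000213). Over both genes the CPM lay between 0.240 and 0.677 in siNPM1c and between 0.890 and 1.41 in siControl, so neither gene's groups overlapped. SNORA14B (chr1:235127803-235127937, minus strand) had 10, 22 and 13 counts in siNPM1c and 39, 63 and 33 in siControl (-1.19 ± 0.26, adjusted p 5.4e-05). SNORA23 had 14, 21 and 16 counts in siNPM1c and 40, 60 and 37 in siControl (-1.03 ± 0.25, adjusted p 0.000303). SNORA14B and SNORA23 passed the filter in all 6 libraries, overlap no exon of another gene, and had groups far apart in CPM, at 0.752 to 1.08 in siNPM1c and 1.78 to 2.28 in siControl.

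SNORA24, a guide for pseudouridylation of small-subunit rRNA (chr4:118279190-118279320, plus strand), had 2, 5 and 6 counts in siNPM1c and 10, 23 and 12 in siControl. Its groups were apart and its log2 fold change was -1.37 ± 0.45 (adjusted p 0.00845, edgeR). Without siNPM1c replicate 1, siNPM1c replicate 2 or siControl replicate 2 that p was 0.0611, 0.0595 or 0.0860. Of the calls on members over the filter in all 6 libraries, those of SNORA14B, SNORA23, SNORA73A, SNORD3A, SNORD3C, SNORD3D and SNORD17 were kept in every leave-one-out fit, and that of SNORD134 was not.

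The next H/ACA members by level per length did not pass the test. SNORA48 stood at 15.1, 15.8 and 16.2 CPM in siNPM1c and at 17.1, 11.8 and 13.1 CPM in siControl, with a log2 fold change of 0.19 ± 0.09 and an adjusted p of 0.0547. Leaving out siControl replicate 1, the high library of its group, gave 0.35 with an adjusted p of 0.000579, and leaving out siNPM1c replicate 1 gave 0.22 with 0.0408. SNORA57 stood at 5.19, 6.85 and 5.67 CPM in siNPM1c and at 5.89, 5.40 and 4.79 CPM in siControl (0.17 ± 0.13, adjusted p 0.315). SNORA71D stood at 5.42, 5.41 and 4.86 CPM in siNPM1c and at 4.95, 4.02 and 3.88 CPM in siControl (0.30 ± 0.14, adjusted p 0.0752, and 0.0309 without siControl replicate 1). The groups overlapped in all 3, and with library sizes alone their signs turned, to -0.28 for SNORA48, -0.31 for SNORA57 and -0.17 for SNORA71D. The other H/ACA members tested and not called ran from -0.72 to 0.63, with a median SE of 0.26 over all 26 tested.

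Level per length separates the few abundant members from the rest. Over all libraries the 5 highest C/D members were SNORD3A (1310 CPM per kb), SNORD3D (815), SNORD159 (200.2), SNORD3C (184) and SNORD17 (134). The 5 highest H/ACA members were SNORA73B (587), SNORA73A (295), SNORA48 (110.1), SNORA57 (37.8) and SNORA71D (34.5). Of the 61 members 31 had a median of under 20 counts per library, and at the overall median of 19.5 counts the counting error alone is 22.6%. Among the 5 SNORD members averaging 10 CPM or more, 4 rose and 0 fell, while of the 3 such SNORA members 0 rose and 1 fell. Those that rose were SNORD17 and the near-identical U3 genes SNORD3A, SNORD3C and SNORD3D, whose split of counts is uncertain. DESeq2 called the same numbers in these subsets. Under 10 CPM, 4 SNORD members rose and 4 fell of 20 tested, and 0 SNORA members rose and 5 fell of 23 tested. The SNORD shares each way and the SNORA share that fell are near the 21.3% higher and 21.4% lower over all genes tested.

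The calls were also counted by exon overlap. Among SNORA members that overlap no exon of another gene, 0 of 11 tested rose and 2 fell, and the median of their log2 fold changes was 0.07. Among those that do, 0 of 15 rose and 4 fell, with a median of -0.35. Among SNORD members without such overlap 4 of 11 rose and 1 fell (median 0.21), and among those with it 4 of 14 rose and 3 fell (median 0.16). Its part in the results was not tested.

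Host genes allow a comparison within the transcript, because an intronic snoRNA and its host start as 1 RNA. That comparison is limited where a member overlaps an exon of a host, since its counts can then hold host reads. Among called members this holds for SNORA3A, SNORA24, SNORA63, SNORA73A, SNORD15A, SNORD22, SNORD74, SNORD83B and SNORD96A. SNORD3D is also listed in a host, the non-coding AC007952.4, whose exon it overlaps, although U3 has its own promoters. Of the 61 members 57 lie in a host gene on the same strand (for the 9 without a strand in the tables used, in any host gene), and 42 tested members have a tested host, 34 hosts in all. The median log2 fold change was -0.12 for SNORA members and -0.07 for their hosts, and 0.08 for SNORD members and -0.17 for their hosts. Across these 42 pairs Pearson's r was 0.156 and Spearman's rho 0.276. The pairs share libraries and scaling, some share a host, and genes are not independent replicates.

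**Figure D4:**
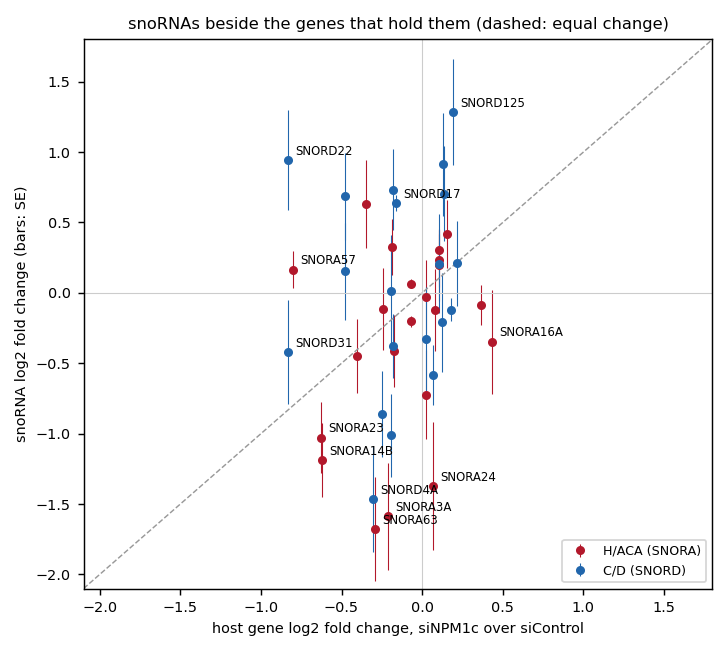
Log2 fold change of 42 snoRNAs (vertical axis, bars: SE) against that of their host genes (horizontal axis), both siNPM1c over siControl, with the dashed line at equal change. SNORD22 and SNORA57 lie above 0 beside hosts at -0.83 and -0.80. SNORA63, SNORA3A and SNORD4A, which entered the test only through siControl, lie at -1.47 or lower beside hosts between -0.31 and -0.21.

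Hosts of the lower snoRNAs were mostly lower too, by less, but that follows in part from the selection. Members with few counts are called only at large changes. SNORA63, SNORA3A, SNORA24 and SNORD4A also entered the test only through siControl. Of all 42 pairs, 22 members lay below their host and 20 above it. IPO7, an importin gene that holds SNORA23, and TOMM20, a mitochondrial import receptor gene that holds SNORA14B, fell by 0.63 and 0.62 on the log2 scale (adjusted p 5.78e-13 and 1.97e-24, edgeR). EIF4A2 (SNORA63), RPL27A (SNORA3A), RPL23A (SNORD4A), RACK1 (SNORD96A) and GAS5 (SNORD74) fell by 0.29, 0.21, 0.31, 0.19 and 0.25. In the host of SNORA24, SNHG8, the log2 fold change was 0.07 (adjusted p 0.594), and SNORD134 fell in FASN, which rose by 0.07 (adjusted p 0.000145). Over the 6 lower SNORA members 4 hosts fell and 2 were not called. Over the 4 lower SNORD members 3 hosts fell and 1 rose. Among all genes tested 21.4% fell and 21.3% rose, and the share among all hosts is not given here. Hosts with many counts are called at smaller changes, so these counts do not show that members and hosts fell together.

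Beside the higher C/D snoRNAs the hosts were mixed. SNHG1, the non-coding host of SNORD22, fell by 0.83 (adjusted p 7.06e-05, edgeR), with 30, 34 and 37 counts in siNPM1c and 65, 100 and 72 in siControl. SNORD31, also in SNHG1 and, like SNORD15B, named here after its values were seen, had 2, 18 and 9 counts in siNPM1c and 10, 28 and 13 in siControl (-0.42 ± 0.37, adjusted p 0.372). The SNORD22 to SNORD31 ratio overlapped between groups, at 8, 1.17 and 1.33 in siNPM1c and 1.4, 0.321 and 0.769 in siControl. RPS3, the host of SNORD15A, fell by 0.18, and SNORD15B in the same gene had a log2 fold change of -0.38 ± 0.23 (adjusted p 0.179). The SNORD15A to SNORD15B ratio was 1, 1 and 0.727 in siNPM1c and 0.2, 0.744 and 0.404 in siControl, which overlap. AP1B1 (SNORD125) and RPL3 (SNORD83B) rose by 0.19 and 0.13, and SNX5 (SNORD17) stood at -0.16 (adjusted p 0.0728). CSKMT, the host of SNORA57, fell by 0.80 (adjusted p 1.78e-05). The host of SNORA48, SNORA67 and SNORD10, EIF4A1, is a translation factor gene used by every cell and was listed at 0 in all libraries, so no host value is given for them.

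Genes of the proteins that hold, build and move snoRNAs were lower or not called in most lists. Of the 4 C/D core proteins, NOP58 averaged 4.64 ± 0.785 CPM in siNPM1c and 7.05 ± 0.871 CPM in siControl and fell by 0.57 on the log2 scale (adjusted p 0.000113, edgeR), and NOP56 fell by 0.18 (adjusted p 0.0299). Fibrillarin (FBL, the methyltransferase) and SNU13 stood at -0.07 and -0.12 (adjusted p 0.392 and 0.16). Of the 4 H/ACA core proteins, dyskerin (DKC1, the pseudouridine synthase) fell by 0.32 (adjusted p 0.0105) and NOP10 by 0.54 (adjusted p 0.00599). NHP2 and GAR1 stood at -0.10 and 0.11 (adjusted p 0.764 and 0.794). In each core list 0 members were called higher and 0 had an unadjusted p under 0.05 upward. DESeq2 called 0 higher, with 1 C/D and 2 H/ACA members lower. Over all genes the shares were 21.3% higher and 21.4% lower by edgeR, and 9.30% and 8.54% of 23093 genes by DESeq2. Lists of 4 genes are too short to be set apart from these shares. The median log2 fold change was -0.15 over the C/D and -0.21 over the H/ACA core, beside -0.01 over all genes.

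The counts of the next lists stand beside 21.3% higher and 21.4% lower over all genes tested, and several are near those shares. Among 12 tested snoRNP assembly factors 5 fell: RPAP3 by 0.96, ZNHIT3 by 0.50, HSP90AA1 by 0.50, HSP90AB1 by 0.35 and RUVBL1 by 0.29. RPAP3 and RUVBL1 belong to the chaperone complex that joins the core proteins. None was higher by edgeR (0 also at an unadjusted p under 0.05 and by DESeq2), and DESeq2 called 4 lower, without ZNHIT3 (adjusted p 0.164). Among 8 tested genes of cap formation, transport and nucleolar targeting 3 fell, COIL by 0.65, the cap-binding gene NCBP1 by 0.35 and the export receptor gene XPO1 by 0.34, and 0 rose (1 at an unadjusted p under 0.05, 0 by DESeq2). Of 7 U3 snoRNP proteins UTP20 fell by 0.91 and UTP3 rose by 0.34 (adjusted p 9.38e-10 and 0.0443), and by DESeq2 UTP3 was not called (0.209). Of 11 genes of intron debranching and end trimming, AQR fell by 0.51 and EXOSC10 by 0.35, and 0 rose by any of these counts. A list of 14 genes that serve the stand-alone snoRNA genes holds SNAPc and Integrator genes with ELL, ICE1 and ICE2, which belong to neither. In it INTS1 rose by 0.13 and ELL by 0.29, and INTS4, INTS11, ICE1 and ICE2 fell by 0.40, 0.15, 0.25 and 0.38. By DESeq2 only ICE1 of those 4 was called lower, with adjusted p-values of 0.0938 for INTS4, 0.0806 for INTS11 and 0.0597 for ICE2. The medians of these 5 lists ran from -0.25 to -0.08. With library sizes alone 0 members of any of the 7 lists were higher, where only 3.90% of all genes tested were higher and 71.5% lower.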

How the data were processed

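Total RNA of 6 OCI-AML3 libraries was sequenced. The authors deposited raw counts per gene, 1 column per library. Listed without a role in the submitters' processing notes are STAR 2.7.5a, cutadapt 2.6, CASAVA 1.8, DESeq2 1.34.0, and hg38 and mm10 as builds. The counting tool, its annotation and its use of strand are not given in the sources used here.

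Of 28307 genes, 28261 matched an NCBI symbol. Positions, hosts and exons came from RefSeq GRCh38.p14 and GENCODE 29, and sequences from GENCODE 29, which held 52 of the 61 members. Counts were tested with edgeR 4.0.16 (quasi-likelihood, TMM factors, filterByExpr at 10 counts per library and 15 in total) and limma 3.58.1 in R 4.3.3, on 12938 genes, with Benjamini-Hochberg adjustment over all of them and a threshold of 0.05. CPM values use the TMM factors. The tests were tried on simulated data. Library totals ran from 15075235 to 25190122 counts. Alternatives were DESeq2 1.42.0, other scalings and filters, each library left out, a replicate block and subsets of members. Members are named by rule: snoRNAs of rRNA cleavage, in each class and direction the 8 largest called changes, the 5 highest levels per length, the neighbours of the cut-off, and hosts of these. Of the protein lists, called genes and both core lists are named. The members and lists were chosen with earlier results of these data known. Some markers of other cell types are not reported here.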

Additional observations from a re-analysis of the deposited data

How the results depend on the processing

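With library sizes alone, 505 genes were higher and 9253 lower in all, 0 SNORA members were higher and 16 lower (median -0.59), and 3 SNORD members were higher and 10 lower (median -0.26). On that scale the sign turned for SNORD3A (-0.17), SNORD3D (-0.053), SNORA48 (-0.28), SNORA57 (-0.31), SNORA71D (-0.17) and SNORA73B (-0.41). SNORA members called higher numbered 1 with DESeq2 size factors, 2 with TMM factors from protein-coding genes, 2 with a filter at 1 CPM and 2 with the replicate block. SNORD members called higher numbered 5 without the filter, 5 with a filter at 1 CPM (median -0.000985) and 5 by DESeq2, which called 2 lower. Among members with summed counts of 200 or more, 1 SNORA was lower (median 0.18), 4 SNORD were higher and 1 was lower. Among SNORD members of 100 bases or more 1 was lower (median 0.59). Without members that overlap exons, 2 SNORA were lower (median 0.066), 4 SNORD were higher and 1 was lower. The subsets test fewer genes, and for the other settings the cause was not tested. The mean log2 ratio of SNORA to SNORD counts, siNPM1c minus siControl, was -0.38. It was -0.28 both without U17 and U3, where the SNORD counts rest largely on SNORD17, and without members that overlap exons. These last alternatives, on exons and on U17 and U3, were chosen after seeing the data. Leaving out 1 library gave 0 to 4 SNORA higher and 5 to 6 lower (median -0.21 to 0.02). For SNORD it gave 6 to 7 higher and 2 to 4 lower (median 0.12 to 0.28). The difference in mean log2 ratio between groups was then -0.40 to -0.35. Over the genes tested, deviations of same-numbered libraries from their group means had correlations of 0.0193, -0.00266 and -0.00408. Counting error enters these values, so they cannot exclude that the numbers pair libraries. In both groups the rRNA share was lowest in replicate 1 and highest in replicate 2 (69.4% and 71.1% in siNPM1c, 63.0% and 64.5% in siControl). Under the replicate block SNORA48 and SNORA73B had adjusted p-values of 0.0333 and 0.0426 by edgeR. Counting error limits the 31 members with a median under 20 counts.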

Other observations

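Small Cajal body RNAs, which resemble snoRNAs and guide modification of spliceosomal RNAs, were mostly higher in siNPM1c relative to the bulk of genes. Of 8 tested, 5 rose and 0 fell by edgeR's quasi-likelihood test (3 and 0 by DESeq2), where 21.3% of all genes rose. SCARNA2 averaged 90.9 ± 2.89 CPM in siNPM1c and 61.6 ± 2.95 CPM in siControl (SD, n = 3 each), a log2 fold change of 0.57. SCARNA6, SCARNA12, SCARNA17 and SCARNA21 rose by 0.54, 0.34, 0.79 and 1.02. The median was 0.44, and -0.03 with library sizes alone, where 1 was higher and 2 lower. On that scale 3.90% of all genes tested were higher and 71.5% lower.

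Of 7 tested spliceosomal and other small nuclear RNAs, 3 rose and 0 fell by edgeR (2 and 0 by DESeq2): RN7SK by 0.20, RNU2-1 by 0.46 and RNU4-1 by 0.32. Over all genes the shares were 21.3% higher and 21.4% lower by edgeR, and 9.30% and 8.54% of 23093 genes by DESeq2. With library sizes alone 0 of the 7 were higher and 4 lower, where 3.90% of all genes tested were higher and 71.5% lower.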
